A study of Xenopus tropicalis with 12 samples.

Results

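In the brain of premetamorphic tadpoles, 24 genes had more mRNA in thra mutant animals without added hormone than in wild type (WT) animals without it, had more in WT animals after T3, and had little more after T3 in the mutant. They are 24 of the 33875 features in the deposited count table, of which 22820 carry XLOC identifiers and the other 11055 new_exon identifiers, which were not searched. The 24 were chosen by their measured values, and the choice used all 12 libraries. Counts were expressed as CPM (the library's counts scaled to a total of 1000000) and averaged by group. A member had a mean in thra mutant vehicle and a mean in WT T3 that were each at least 1.25 times the WT vehicle mean, with all 3 libraries above all 3 WT vehicle libraries in both cases. Its WT T3 mean was at least 1 CPM, and its thra mutant T3 mean was under 1.3 times its thra mutant vehicle mean. Of 5 identifiers set aside by name, 3 met these criteria (hmga2, lman1l and brs3) and 2 did not (traf3 and ccnj).

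The receptors for thyroid hormone are transcription factors that sit on their target genes whether or not T3 is bound. The proteins NCoR and SMRT attach to the empty receptor and bring histone deacetylases, which keep the mRNA of the gene low, and they leave when T3 is bound and acetyltransferases take their place. In Xenopus, where T3 drives metamorphosis, TRα, the product of thra, is the main receptor of the premetamorphic tadpole, and loss of an unliganded receptor can raise the mRNA of a target gene before any hormone is present, which is called derepression. The comparison described here asks for which T3-induced genes the mRNA was already higher in mutant brain without added T3. Below, without T3 means without added T3, and the T3 of the tadpoles themselves was not measured.

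The tissue was the preoptic area, thalamus and hypothalamus of X. tropicalis tadpoles at NF stage 54, dissected with the pituitary. There were 4 groups with 3 libraries each: thra mutant T3, thra mutant vehicle, WT T3 and WT vehicle. T3 was given at 5 nM for 16 h in the aquarium water, and the vehicle groups had its solvent alone, which the protocol names as NaOH and the design text as DMSO. Each library pooled 5 tadpoles, so the SD between libraries is the spread between pools. The mutant, thra mt-exon4, comes from the TALEN line TRαM5 and is homozygous for a mutation in exon 4 of thra that is predicted to end the protein ahead of its DNA-binding domain in all cells, while the WT frogs came from a commercial supplier. Genotype and stock therefore cannot be told apart. No identifier was paired with thra itself, so the labels alone give the genotype of a library.

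Library totals ran from 41012459 to 67603703 counts, and the thra mutant libraries were on the whole deeper. No library was left out. The summed CPM of 5 neuron markers was 1480 to 1550 in thra mutant T3, 1490 to 1600 in thra mutant vehicle, 1570 to 1600 in WT T3 and 1490 to 1570 in WT vehicle. By DESeq2, but not by edgeR or limma-voom, the sum joins markers called in opposite directions. With T3 in WT, DESeq2 at an adjusted p under 0.05 called celf3, myt1l and elavl3 higher and snap25 and stx1a lower. At the same threshold edgeR called celf3 and myt1l higher and limma-voom celf3, myt1l and elavl3, and neither called snap25 or stx1a. Of 8 markers of radial glia 5 were paired with an identifier, and their sum was 2620 to 2770 CPM in thra mutant vehicle against 2500 to 2700 CPM in WT vehicle. In thra mutant T3 it was 2500 to 2580 CPM, under all mutant vehicle libraries, and its part in the response to T3 was not tested. Of these 5, DESeq2 called hes6.1 higher and id4 and slc1a3 lower with T3 in WT. Among those called by DESeq2, edgeR and limma-voom called slc1a3 alone, lower with T3 in WT. Markers were paired only through a table ordered by that response, so the sums are no check on the numbers of cells. No marker of the pituitary or of erythrocytes was paired, so the presence of pituitary in the dissections was not checked. In bulk tissue, a change in the number of cells of a type and a change in RNA per cell cannot be told apart. Between replicates, the common dispersion of the counts, their squared coefficient of variation beyond counting error, was 0.0116 in thra mutant T3, 0.0148 in thra mutant vehicle, 0.00485 in WT T3 and 0.0220 in WT vehicle, so that the WT vehicle libraries, from which both rises are measured, varied most.

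The criteria narrowed the XLOC features in steps. At the stated fold over WT vehicle, with separate groups, 305 features were higher in thra mutant vehicle and 1111 in WT T3. Both held for 77, and 41 of these reached the WT T3 mean. The limit on the response to T3 in the mutant left 27, or 24 without those set aside by name. Near the limit on the mutant rise, stard4 at 1.252 times and acvr2b at 1.259 times WT vehicle were just inside, while znf706 at 1.241 and XLOC_044861 at 1.229 were just outside. The nearest to the limit on the WT T3 rise were xb-gene-5772074 at 1.267 and XLOC_021824 at 1.274 inside, with XLOC_000110 at 1.198 and igf1r at 1.195 outside. By WT T3 mean, XLOC_026122 at 1.192 CPM and XLOC_042006 at 1.287 CPM were inside, and XLOC_012592 at 0.8507 CPM and XLOC_037734 at 0.84 CPM outside. On the response of the mutant to T3, dot1l and cidea at 1.15 were the highest inside. XLOC_035708 at 1.337 and pim3 at 1.48 were the lowest outside.

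All 24 members had separate groups in both rises because the criteria ask for it, where 4.6% of the 20972 XLOC features with counts had all thra mutant vehicle libraries above all WT vehicle libraries and 14.6% had all WT T3 libraries above them. Most rises were small. The median over the 24 was 1.317 times WT vehicle in thra mutant vehicle and 1.479 times in WT T3, where the medians over the 15122 XLOC features with the same WT T3 mean were 0.9835 and 0.9906. In thra mutant vehicle 16 members were under 1.5 times WT vehicle and 3 were at 2 times or more. With T3, 13 members in WT stayed under 1.5 times WT vehicle and 7 reached 2 times. The median ratio of thra mutant T3 to thra mutant vehicle was 1.005, with 13 members above 1 and 11 below. These values describe what the choice fixed and are not evidence for it. Both rises are measured from the same 3 WT vehicle libraries, so a gene whose WT vehicle libraries happened to be low would rise in both, and how far this made members was not tested.

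A symbol was paired with 11 of the 24 members through the supplementary table of the study, which lists genes by their response to T3 in WT. A further 6 members are in that table without a symbol and 7 are not in it. The pattern by library of the 11 is shown in the plot of their CPM values.

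**Figure D1:**
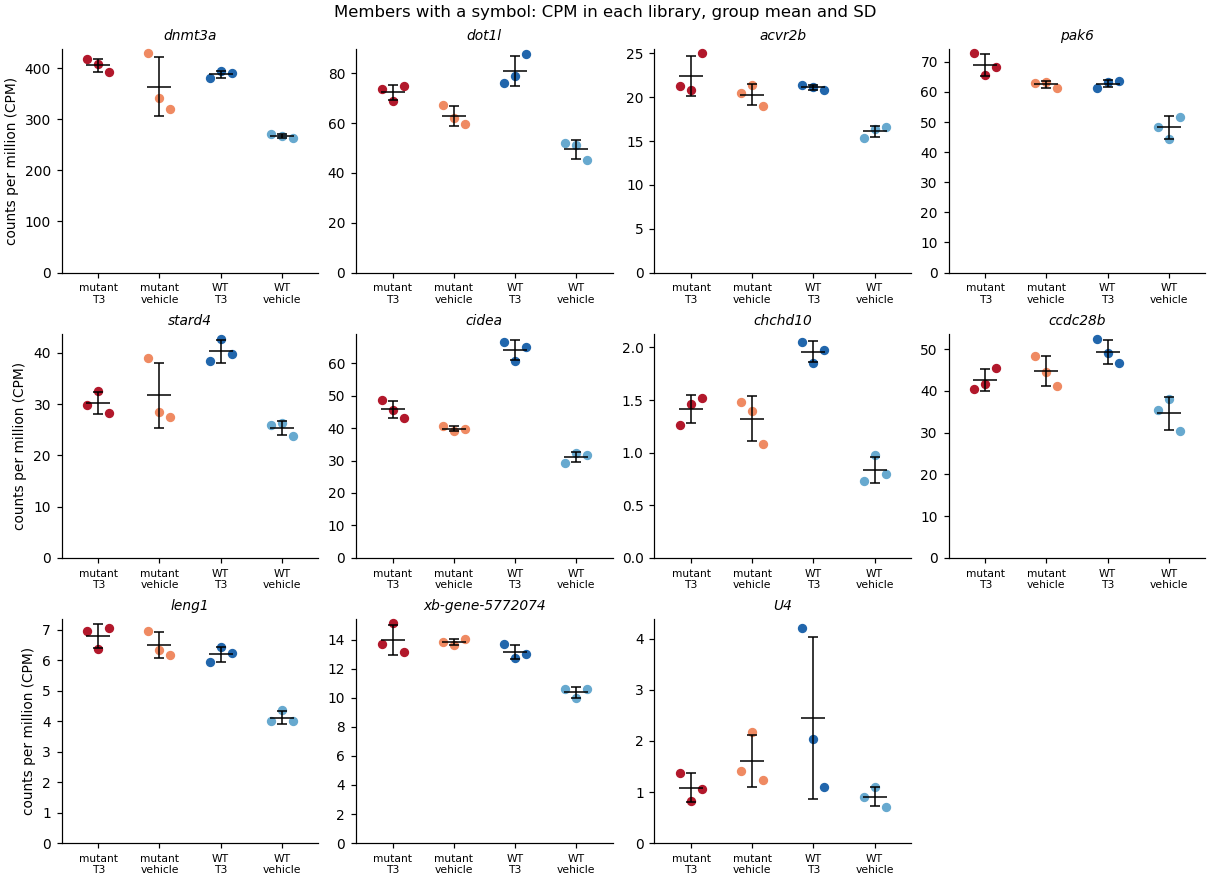
CPM (linear axis from 0) in each of 12 libraries for the 11 members with a symbol, by group (thra mutant T3, thra mutant vehicle, WT T3, WT vehicle). Points are libraries, the wide bar is the mean and the error bar the SD of 3 libraries. All thra mutant vehicle and all WT T3 points lie above all WT vehicle points, as the choice of members requires. In cidea and dot1l the WT T3 points stand above both mutant groups, and in leng1 and pak6 the thra mutant vehicle points reach the WT T3 level.

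Members that act on chromatin were dnmt3a, which encodes a de novo DNA methyltransferase, and dot1l, which encodes the methyltransferase for lysine 79 of histone H3. For dnmt3a the libraries read 417, 408 and 392 CPM in thra mutant T3, 429, 341 and 319.8 CPM in thra mutant vehicle, 379.6, 393 and 391 CPM in WT T3 and 272, 267 and 264 CPM in WT vehicle. The mutant vehicle group was the most scattered of the 4, and its replicate 1 lay above every WT T3 library while the other two lay below them. Its mean was 363 ± 58.0 CPM in thra mutant vehicle against 267 ± 3.93 CPM in WT vehicle (SD, n = 3 each), or 1.36 times. Without that replicate 1 the ratio was 1.235 and dnmt3a no longer met the criteria. On the length-corrected scale of TPM (transcripts scaled to the same total) dnmt3a had the highest level of all members in thra mutant vehicle, 82.4 TPM, followed by XLOC_021848 at 80.3 TPM, while in WT T3 it came after cidea at 106.6 TPM and XLOC_021848 at 93.4 TPM, with 88.2 TPM.

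The dot1l mRNA was at 73.6, 69.0 and 74.7 CPM in thra mutant T3, at 67.5, 62.0 and 59.5 CPM in thra mutant vehicle, at 76.1, 78.9 and 87.7 CPM in WT T3 and at 52.0, 51.2 and 45.2 CPM in WT vehicle. The 4 groups did not overlap and stood, from high to low, in the order WT T3, thra mutant T3, thra mutant vehicle and WT vehicle. The thra mutant vehicle mean was 1.27 times and WT T3 1.64 times WT vehicle, so that 43.1% of the rise seen with T3 in WT was present in the mutant without T3. With T3 in the mutant the mean was 1.15 times that of mutant vehicle. The call of dot1l as a member was lost without thra mutant vehicle replicate 1, its highest library there, and without WT vehicle replicate 3, its lowest library there.

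Signalling proteins were represented by acvr2b and pak6. For acvr2b, which encodes a type II receptor for activins and related ligands, the libraries read 21.3, 20.9 and 25.0 CPM in thra mutant T3, 20.5, 21.4 and 19.0 CPM in thra mutant vehicle, 21.5, 21.2 and 20.8 CPM in WT T3 and 15.4, 16.4 and 16.6 CPM in WT vehicle. Only the WT vehicle group stood apart. The mutant vehicle mean was 1.26 times WT vehicle and the WT T3 mean 1.31 times, and both are close to the limit of 1.25.

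The kinase gene pak6, of a family that binds the small GTPases Cdc42 and Rac, showed almost equal rises. It was at 72.8, 65.6 and 68.2 CPM in thra mutant T3, 62.9, 63.4 and 61.3 CPM in thra mutant vehicle, 61.3, 63.2 and 63.5 CPM in WT T3 and 48.4, 44.4 and 51.8 CPM in WT vehicle. The thra mutant vehicle group averaged 62.6 ± 1.11 CPM and WT T3 62.6 ± 1.18 CPM (SD, n = 3 each), which is a ratio of 0.9985 between them. With T3 in the mutant, pak6 lay above all mutant vehicle libraries, with a mean 1.1 times theirs.

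Lipid handling was represented by stard4 and cidea. The stard4 gene encodes a carrier of sterols between membranes. It was at 29.9, 32.5 and 28.2 CPM in thra mutant T3, 39.0, 28.6 and 27.5 CPM in thra mutant vehicle, 38.4, 42.7 and 39.8 CPM in WT T3 and 25.9, 26.3 and 23.8 CPM in WT vehicle. A single mutant vehicle library, replicate 1, was at the WT T3 level and the other two were just above WT vehicle. Without replicate 1, thra mutant vehicle was 1.107 times WT vehicle, the lowest value of any member with 1 library left out.

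The cidea gene encodes a protein of lipid droplets, known in mammals from brown fat. Its libraries read 48.5, 45.6 and 43.2 CPM in thra mutant T3, 40.6, 39.0 and 39.9 CPM in thra mutant vehicle, 66.6, 60.8 and 64.8 CPM in WT T3 and 29.3, 32.3 and 31.6 CPM in WT vehicle. The 4 groups did not overlap. The thra mutant vehicle mean, at 39.8 ± 0.805 CPM, was 1.28 times WT vehicle, at 31.0 ± 1.58 CPM, while WT T3, at 64.1 ± 2.98 CPM, was 2.06 times (SD, n = 3 each). Of the rise in WT with T3, 26.5% was present in mutant vehicle, the smallest share among the members. With T3 in the mutant cidea was at 1.15 times mutant vehicle, and all its libraries lay under those of WT T3.

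The mitochondrial intermembrane space protein gene chchd10 was a low member, at 1.27, 1.46 and 1.52 CPM in thra mutant T3, 1.5, 1.4 and 1.1 CPM in thra mutant vehicle, 2.05, 1.85 and 1.97 CPM in WT T3 and 0.73, 0.97 and 0.80 CPM in WT vehicle. All WT T3 libraries lay above all libraries of the other groups. The mean in thra mutant vehicle was 1.58 times and that in WT T3 2.35 times WT vehicle.

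The ccdc28b gene, a coiled-coil protein gene linked in human and zebrafish to cilia, was at 40.5, 41.7 and 45.6 CPM in thra mutant T3, 48.4, 44.6 and 41.2 CPM in thra mutant vehicle, 52.4, 49.0 and 46.6 CPM in WT T3 and 35.3, 38.0 and 30.4 CPM in WT vehicle. The mutant vehicle group overlapped both T3 groups, which did not overlap each other. For leng1, the libraries read 6.95, 6.36 and 7.07 CPM in thra mutant T3, 6.97, 6.33 and 6.17 CPM in thra mutant vehicle, 5.95, 6.43 and 6.23 CPM in WT T3 and 4.0, 4.4 and 4.0 CPM in WT vehicle. WT vehicle alone stood apart, and leng1 was 1.58 times WT vehicle in the mutant without T3 and 1.51 times in WT with T3.

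The hypothetical protein gene xb-gene-5772074 was at 13.7, 15.1 and 13.2 CPM in thra mutant T3, 13.8, 13.6 and 14.1 CPM in thra mutant vehicle, 13.7, 12.7 and 13.0 CPM in WT T3 and 10.6, 9.95 and 10.6 CPM in WT vehicle. Its mutant vehicle mean was 1.34 times and its WT T3 mean 1.27 times WT vehicle, so the mutant rise was 125.8% of the WT response. The feature with the symbol U4 is named for a small nuclear RNA of the spliceosome that has many near-identical copies, between which reads can be split, and at 3174 bases the feature is far longer than that RNA. It was at 1.37, 0.818 and 1.06 CPM in thra mutant T3, 1.40, 2.18 and 1.23 CPM in thra mutant vehicle, 4.20, 2.04 and 1.096 CPM in WT T3 and 0.909, 1.089 and 0.716 CPM in WT vehicle. The lowest WT T3 library was hardly above the highest WT vehicle library, the ratio of WT T3 to WT vehicle of 2.70 was 1.73 without WT T3 replicate 1, and U4 is uncertain as a member.

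Among the 13 members without a symbol, XLOC_039026 had the clearest pattern. It was at 30.8, 26.4 and 31.4 CPM in thra mutant T3, 28.5, 24.7 and 25.4 CPM in thra mutant vehicle, 17.9, 21.0 and 22.0 CPM in WT T3 and 9.67, 10.3 and 6.64 CPM in WT vehicle. The thra mutant vehicle mean was 2.95 times and WT T3 2.29 times WT vehicle, and XLOC_039026 was the only member whose mutant vehicle libraries all lay above all WT T3 libraries.

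The other two of the 3 with the highest mutant rise were unsteady between replicates. XLOC_036678 read 2.74, 5.01 and 2.32 CPM in thra mutant T3, 6.13, 4.24 and 2.37 CPM in thra mutant vehicle, 2.24, 3.37 and 4.42 CPM in WT T3 and 1.31, 0.0 and 2.12 CPM in WT vehicle. The highest WT vehicle library was close to the lowest library of each other group. XLOC_027427 switched between libraries of the same group, with expected counts of 429.12, 308.77 and 0.18 in thra mutant T3, 1016.9, 1.25 and 518.46 in thra mutant vehicle, 0.03, 163.34 and 571.75 in WT T3 and 0 in every WT vehicle library. Its place among the members turns on a fraction of a count in WT T3 replicate 1 and on 1.25 counts in thra mutant vehicle replicate 2, both below a floor of 3 counts. Against that floor summed over the WT vehicle group, the mutant vehicle mean was at least 420-fold higher and the WT T3 mean at least 241-fold higher, bounds set by 2 libraries of each group. With 1 library left out these bounds ran from 195-fold, without mutant vehicle replicate 1, to 629.5-fold for the mutant and from 101-fold, without WT T3 replicate 3, to 361-fold for WT T3. With 3 counts asked of every thra mutant vehicle and WT T3 library, 23 members remained.

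**Figure D2:**
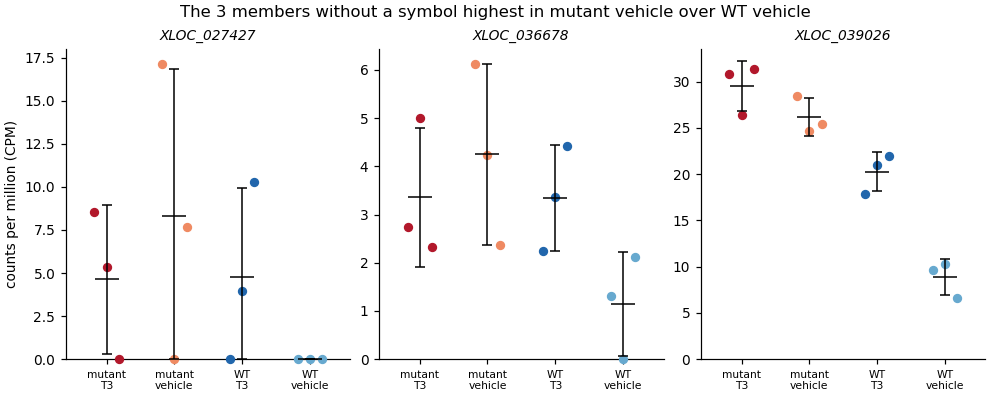
CPM (linear axis from 0) in each library for the 3 members without a symbol with the highest ratio of thra mutant vehicle to WT vehicle, by group as named on the axis. Points are libraries, the wide bar is the mean and the error bar the SD of 3 libraries, cut at 0 where it would pass below. XLOC_027427 has libraries near 0 and libraries over 3 CPM within each of the thra mutant T3, thra mutant vehicle and WT T3 groups, while the groups of XLOC_039026 are compact and WT vehicle is lowest.

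The remaining 10 members without a symbol spanned a wide range of levels. XLOC_038322, the second highest member by CPM in WT T3 after dnmt3a, had means of 193 CPM in thra mutant T3, 175 CPM in thra mutant vehicle, 178 CPM in WT T3 and 139 CPM in WT vehicle. XLOC_021848 read 121, 112 and 112 CPM in thra mutant T3, 113, 111 and 117 CPM in thra mutant vehicle, 131, 134 and 129.7 CPM in WT T3 and 86.9, 88.2 and 87.6 CPM in WT vehicle. Its mutant vehicle libraries fell between the WT groups without touching either. XLOC_035167 averaged 40.5 CPM in thra mutant vehicle and 41.1 CPM in WT T3 against 31.5 CPM in WT vehicle, with its mutant replicate 1 at 48.4 CPM above the other two at 36.6 and 36.4 CPM. XLOC_021824 had the same feature, with 10.7 CPM in mutant vehicle replicate 1 and 7.33 and 7.22 CPM in the others. The other 6 (XLOC_019917, XLOC_026122, XLOC_030839, XLOC_032445, XLOC_042006 and XLOC_043857) had WT T3 means under 5 CPM, as had 10 of the 24 members in all.

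The size of the mutant rise relative to the WT response to T3 differed widely among members. Its median was 88.1% of the WT T3 rise, between 26.5% in cidea and 174.5% in XLOC_027427. It was at or over 100% in 9 members and under 50% in 5, which were cidea, stard4, dot1l, chchd10 and U4. Both rises were chosen to be at least 1.25 times WT vehicle, and both are measured from the same WT vehicle libraries. The share was thus in part set by the choice. It was not computed for other features, and nothing is read from its median. With 1 library left out the median ran from 70.0% without mutant vehicle replicate 1 to 97.3% without its replicate 3, the number at or over 100% from 6 to 11 and the number under 50% from 2, without mutant vehicle replicate 3, to 7, without WT T3 replicate 2 or 3. A single library moved the share by more than 1.5 times in 7 members. Without mutant vehicle replicate 1 it was 81.0% in XLOC_027427, 75.2% in XLOC_021824, 52.4% in XLOC_035167, 52.3% in dnmt3a and 18.1% in stard4, which then was the lowest. Without WT T3 replicate 3 it was 416% in XLOC_027427 and 106.5% in XLOC_026122. In U4 it was 105.3% without WT T3 replicate 1 and 26.6% without mutant vehicle replicate 2. The libraries of thra mutant vehicle lay all below those of WT T3 in 4 members (cidea, dot1l, chchd10 and XLOC_021848) and all above in 1, where 20.3% and 15.7% of the 20972 XLOC features with counts did so. In the other 19 members the groups overlapped. This does not show that they were equal.

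**Figure D3:**
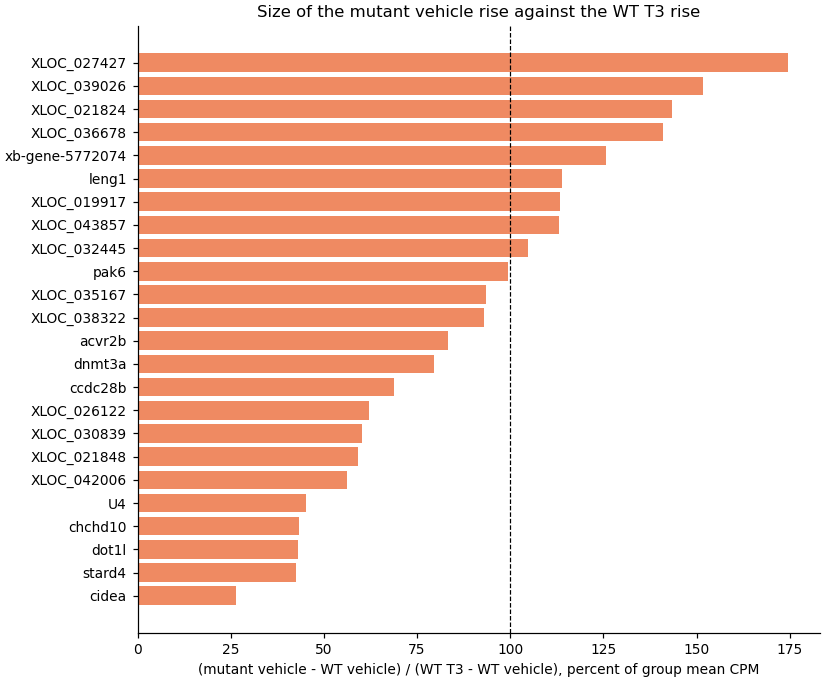
Rise of thra mutant vehicle over WT vehicle as a percentage of the rise of WT T3 over WT vehicle, from group means of CPM, for each of the 24 members. Bars start at 0 and the dashed line marks 100%. Both rises were used to choose the members and share the WT vehicle mean. The shares run from 26.5% in cidea to 174.5% in XLOC_027427, with 9 members at or over the line. The bar of XLOC_027427 rests on unsteady counts and was 81.0% without thra mutant vehicle replicate 1.

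In most members the T3 and vehicle groups of the thra mutant overlapped. The mutant T3 libraries lay all above the mutant vehicle libraries in 3 members, cidea, dot1l and pak6, against 8.3% of the XLOC features with counts, and all below in 2, XLOC_026122 and XLOC_043857, against 6.02%. Both counts are close to these shares of 24 members, and nothing is read from them. All mutant T3 libraries were above all WT vehicle libraries in 19 of the 24 members, where 7.17% of XLOC features with counts were. The mutant T3 libraries entered the choice only through the upper limit on the mutant response, but the WT vehicle libraries are again the same. Members were chosen for WT vehicle libraries that lie below all thra mutant vehicle and all WT T3 libraries. The share of all features is thus no measure for the count of 19, and nothing is read from it. The 5 members in which the mutant T3 and WT vehicle libraries overlapped were U4, XLOC_026122, XLOC_032445, XLOC_042006 and XLOC_043857.

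**Figure D4:**
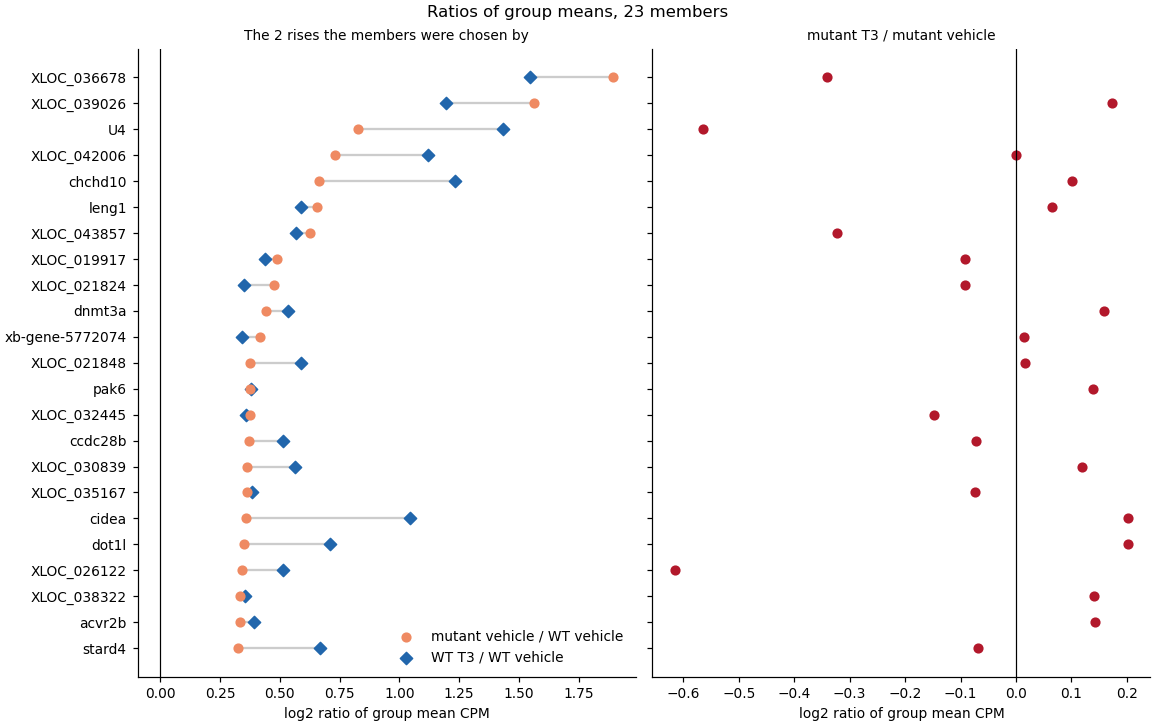
Log2 ratios of group mean CPM for 23 members, in order of thra mutant vehicle over WT vehicle. The left panel shows thra mutant vehicle over WT vehicle (circles) and WT T3 over WT vehicle (diamonds), which share the WT vehicle mean and chose the members, and the right panel thra mutant T3 over thra mutant vehicle. XLOC_027427 is not drawn because its WT vehicle counts were all 0. Members lie on both sides of 0 in the right panel, down to -0.61 in XLOC_026122.

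Fitted across all 22018 features that passed a filter on low counts (edgeR's quasi-likelihood test with an adjusted p under 0.05 as the call), all 24 members were tested. In thra mutant vehicle against WT vehicle 9 were called higher and none lower, where 0.164% of all features were called higher and 0.413% lower. The 9 were cidea, dot1l, leng1, pak6, dnmt3a, xb-gene-5772074, XLOC_021848, XLOC_038322 and XLOC_039026. In WT T3 against WT vehicle 16 were called higher, where 5.37% of features were higher and 5.53% lower. In thra mutant T3 against thra mutant vehicle 0 were called by edgeR, DESeq2 or limma-voom. Of all features edgeR called 0.2% higher and 0.0545% lower in that contrast. At an unadjusted p under 0.05 edgeR had 3 members higher and 1 lower. The share of all features at that unadjusted threshold was not computed. Between the T3 groups, thra mutant T3 against WT T3, XLOC_039026 was called higher, beside 3.7% of features, and cidea and XLOC_021848 lower, beside 3.18%. Of these only cidea was called under every alternative fit run, and XLOC_039026 was not called without any 1 of the thra mutant T3 or WT T3 libraries, nor XLOC_021848 without any 1 of them but thra mutant T3 replicate 1. Each of these contrasts was used by the choice or is a sum of contrasts that were, so the counts stand as a description and nothing is read from them.

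The calls of the mutant rise changed with single libraries and with the tool. The number of members called in thra mutant vehicle against WT vehicle was 5, 4 and 5 without thra mutant vehicle replicates 1, 2 and 3, and 4, 5 and 9 without WT vehicle replicates 1, 2 and 3. With only these groups in the fit it was 2 of 23, and by DESeq2 14 of 24. The calls over all features, in either direction, changed too, from 127 with all libraries. They were 33, 47 and 65 without the thra mutant vehicle replicates and 45, 41 and 504 without the WT vehicle replicates, in the same order. With only these groups they were 28, and by DESeq2 532. How far the member counts follow these totals was not tested. The members called whichever of the 12 libraries was left out were leng1, pak6, XLOC_021848 and XLOC_039026. XLOC_021848 and XLOC_039026 were the 2 called under every alternative fit run.

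The shared WT vehicle libraries were weighed by leaving out each in turn and choosing again. Without WT vehicle replicate 1 the criteria found 41 features, of which 19 were among the 24. Without replicate 2 they found 42, with 22 of the 24, and without replicate 3 they found 65, with 21 of the 24. With 2 libraries in place of 3 the condition that groups do not overlap is easier to meet, which by itself lets in more features. Whichever WT vehicle library was left out, 14 members stayed, among the named ones leng1, chchd10, dnmt3a and U4. The other 10 were lost without 1 of them: cidea, acvr2b, XLOC_026122, XLOC_030839 and XLOC_038322 without replicate 1, pak6 and xb-gene-5772074 without replicate 2, and stard4, dot1l and ccdc28b without replicate 3. WT vehicle replicate 1 was the lowest of the 3 in 10 members, replicate 2 in 5 and replicate 3 in 8, with the 3 tied at 0 in XLOC_027427, compared with 29.43%, 30.23% and 40.33% of the 15122 XLOC features with the same WT T3 mean.

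The same was done for the other libraries. Of the 24 members, 7 were lost without mutant vehicle replicate 1 (stard4, dot1l, XLOC_021824, ccdc28b, XLOC_032445, XLOC_035167 and dnmt3a) and 4 without replicate 2, while all 24 stayed without replicate 3, when the criteria found 40. Over all 12 libraries left out in turn, 10 members were found every time: leng1, chchd10, U4, XLOC_019917, XLOC_021848, XLOC_027427, XLOC_036678, XLOC_039026, XLOC_042006 and XLOC_043857. XLOC_027427, XLOC_036678 and U4 are on that list with the unsteady counts given above. Because the criteria ask for groups that do not overlap, both rises of all 24 members had to stay over 1 whichever library was left out. The lowest mutant rise was then 1.107 in stard4 and the lowest WT T3 rise 1.23 in XLOC_038322.

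**Figure D5:**
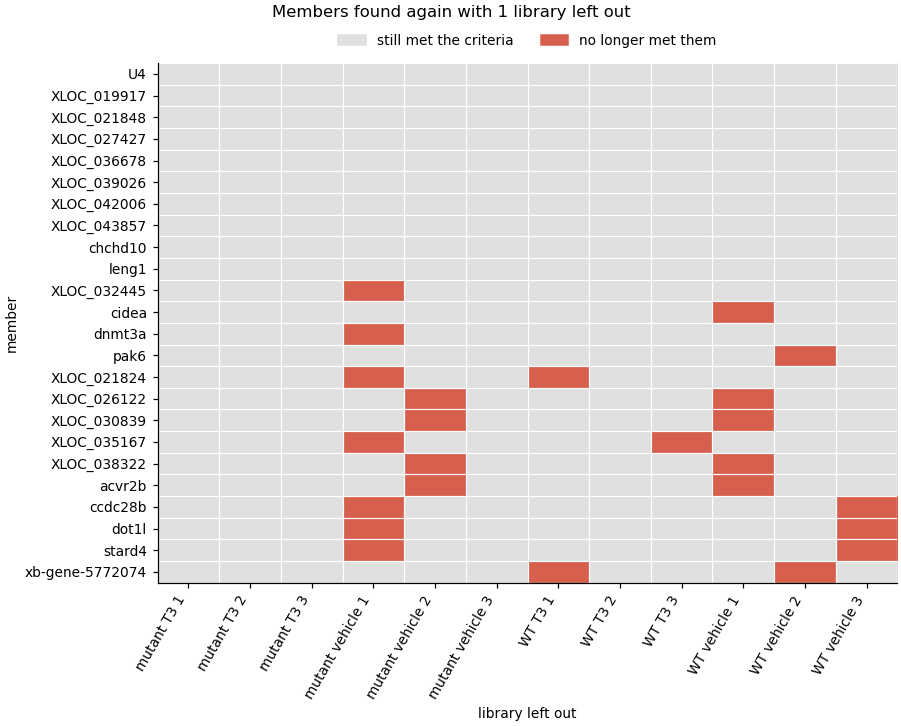
Members (rows) that still met the criteria (grey) or no longer did (red) when 1 library (columns, by group and replicate) was left out. The red cells lie under mutant vehicle replicates 1 and 2, WT T3 replicates 1 and 3 and the 3 WT vehicle libraries, and 10 members have no red cell.

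The known T3-response genes thrb, klf9, dio3 and thibz did not meet the criteria. Lists of genes could hold only the 11 members with a symbol. In a list for thyroid hormone signalling, 12 of 24 symbols were paired, with 13 features, and none of these was a member. Of the 13 features, edgeR, DESeq2 and limma-voom each called 1 higher in thra mutant vehicle than in WT vehicle, the receptor gene thrb, and none lower. At an unadjusted p under 0.05 edgeR had 3 higher and 1 lower. By edgeR 11 of the 13 rose and 1 fell in WT with T3, and 6 rose and none fell in the mutant with T3. The symbols come from a table ordered by the WT response. At an unadjusted p under 0.05 edgeR had 12 of the 13 higher and 1 lower in WT with T3. The WT count was thus largely fixed by the pairing of symbols, and nothing is read from it. For thrb, the libraries read 81.6, 77.6 and 71.3 CPM in thra mutant T3, 29.1, 25.8 and 25.5 CPM in thra mutant vehicle, 118, 100.5 and 117 CPM in WT T3 and 13.5, 13.5 and 12.1 CPM in WT vehicle. It was 2.05 times WT vehicle in the mutant without T3, but that was 13.9% of its WT rise, and T3 raised it to 2.87 times mutant vehicle.

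The transcription factor gene klf9 averaged 197 ± 22.9 CPM in thra mutant T3, 37.5 ± 3.88 CPM in thra mutant vehicle, 333 ± 15.8 CPM in WT T3 and 21.0 ± 8.99 CPM in WT vehicle (SD, n = 3 each). Its mutant vehicle and WT vehicle libraries did not overlap, but it was excluded by its response to T3 in the mutant of 5.24 times. The deiodinase gene dio3, which encodes an enzyme that inactivates T3, was at 2.08 CPM in thra mutant vehicle against 2.77 CPM in WT vehicle. The bZip gene thibz has 2 features, between which reads can be split, and both were under 1 CPM in both vehicle groups. The kinase gene pim3 met every criterion but the limit on the mutant response, with 68.01 ± 4.95 CPM in thra mutant T3, 46.0 ± 3.26 CPM in thra mutant vehicle, 68.1 ± 0.583 CPM in WT T3 and 31.8 ± 1.54 CPM in WT vehicle (SD, n = 3 each), a mutant response of 1.48 times.

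Members with a symbol fell in 2 of the other lists, and members without one could fall in none. In the list of transcription factors and chromatin proteins, dnmt3a and dot1l are the members among 55 features, of which edgeR called 4 higher in thra mutant vehicle than in WT vehicle, those 2 with hmga2 and nfic, and none lower. DESeq2 called 5 higher and limma-voom 3, without hmga2, and neither called any lower, while at an unadjusted p under 0.05 edgeR had 10 higher and 1 lower. Of all features tested, edgeR called 0.164% higher and 0.413% lower in this contrast at an adjusted p under 0.05. Shares of all features at an unadjusted p were not computed, here or for the other lists. The criteria use the same contrast, and dnmt3a, dot1l and hmga2 all met them, so nothing is read from the count of 4. The median log2 fold change of the list was 0.069 there, beside -0.003 over all features tested. In the list for TGF-beta and BMP signalling, acvr2b is the member among 12 features, with a median log2 fold change of 0.074. In that contrast edgeR and limma-voom called none of the 12 and DESeq2 called acvr2b alone, higher, while at an unadjusted p under 0.05 edgeR had 1 higher and 1 lower. By edgeR the WT response to T3 had 38 higher and 1 lower in the first list and 9 higher and none lower in the second. At an unadjusted p under 0.05 edgeR had 52 higher and 3 lower of the 55, and 12 higher of the 12. These WT counts too were largely fixed by the pairing of symbols. The other lists, among them TNF receptor signalling, Wnt signalling, ribosome biogenesis and synaptic genes, held no member and had 0 or 1 feature called by edgeR in each direction in thra mutant vehicle against WT vehicle, and by DESeq2 0 to 3 higher and 0 or 1 lower.

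The other marker lists did not separate thra mutant vehicle from WT vehicle. A marker was paired only where the table ordered by the WT response to T3 held it. Sums of 3 of 5 hypothalamic neuroendocrine markers were 115 to 193 CPM in thra mutant vehicle against 160 to 207 CPM in WT vehicle, and those of 2 of 3 muscle markers 26.3 to 31.0 CPM against 28.1 to 30.6 CPM. With T3 in WT, sums were higher for the neuroendocrine list (252 to 296 CPM), the muscle list (41.5 to 43.8 CPM), 3 inner ear markers (8.05 to 8.91 CPM, against 0.549 to 0.656 CPM in WT vehicle) and 2 of 3 epidermal markers (12.6 to 13.6 CPM, against 5.79 to 8.82 CPM in WT vehicle). No paired marker was at 0 throughout a group. A marker that T3 left unchanged in WT would tend to go unpaired, so the higher sums with T3 in WT follow in part from the pairing. The part of these tissues in the WT T3 values of the members was not tested.

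The members were on the whole low in level. Their median WT T3 mean was 10.4 CPM against 24.1 CPM for the 15122 XLOC features with that mean, and their median feature length was 3286 bases against 3952, with a range of 588 to 14568. In 12 members every one of the 12 values was a fraction, which can arise where reads are shared between features. The share of all features with this trait was not computed. In 2 members every value was whole to within 0.005, as in 1.369% of the 15122 XLOC features. Nothing is read from either count. Of the 11 members with a symbol 10 were found in the RefSeq table of X. tropicalis (assembly UCB_Xtro_10.0), and no pair of them was adjacent in it.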

How the data were processed

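RNA-seq libraries of 12 pools were analysed from the deposited tables. Bowtie alignment of 50 nt single-end reads to genome v4.1 and RSEM quantification on the MNHN annotation were done by the authors, with versions not given in the sources used here. What they deposited are expected counts of RSEM, which share a read between the features it fits. TPM and FPKM values derived from these were deposited too. FPKM was not used. Groups came from the sample titles. The members and gene lists were chosen with earlier results of these data known.

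CPM is the deposited expected count over the column sum. Counts were rounded to whole numbers and tested with edgeR 4.0.16 (R 4.3.3; TMM, filterByExpr, quasi-likelihood test, 1 fit of all groups, Benjamini-Hochberg within a contrast). Alternatives were DESeq2 1.42.0, limma-voom 3.58.1, other scaling and filters, fits of the groups compared, a replicate block and single libraries left out. With 200 of 21716 simulated features changed by a log2 fold change of 1 in thra mutant vehicle against WT vehicle, edgeR recovered 70% with 6 false calls. That change is larger than the median mutant rise of the members, a log2 ratio of 0.398. Each simulated feature had 1 dispersion for all groups, where the groups of the data differed. The recovered shares therefore do not give the recovery of rises as small as those of most members.

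Named were all members with a symbol, the 3 without one with the highest ratio of thra mutant vehicle to WT vehicle, those nearest each limit, and thrb, klf9, thibz, dio3 and pim3. XLOC_021848, XLOC_038322 and other members without a symbol were named after their values were seen. Symbols came from the supplementary table, of which 1929 identifiers were used. No sequence or coordinate is given because the genome of the files' build was not used here. The p values measure the spread between pools of 5 tadpoles. Figures used matplotlib 3.10.9.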

Additional observations from a re-analysis of the deposited data

Results flagged for a closer look

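In 2 members all thra mutant T3 libraries lay below all thra mutant vehicle libraries. Their WT T3 libraries all lay above all WT vehicle libraries, as the choice of members requires. Of the XLOC features with counts, 6.02% had all thra mutant T3 libraries below all thra mutant vehicle libraries. The count of 2 is close to that share of the members, and nothing is read from it. The mean was lower with T3 in the mutant in 11 members, and in the other 9 of these the libraries overlapped. XLOC_026122 was at 0.817, 0.540 and 0.713 CPM in thra mutant T3 against 1.03, 1.12 and 1.02 CPM in thra mutant vehicle, a ratio of 0.653, whereas all WT T3 libraries lay above all WT vehicle libraries. XLOC_043857 was at 1.65, 1.27 and 1.71 CPM in thra mutant T3 against 1.74, 2.03 and 2.03 CPM in thra mutant vehicle, a ratio of 0.80, and its WT T3 libraries too lay above all WT vehicle libraries. Neither was called lower with T3 in the mutant, with an edgeR adjusted p of 0.351 for XLOC_026122 and of 0.521 for XLOC_043857. The difference between the genotypes was not tested, and the direction in WT was fixed by the choice of members.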

How the results depend on the processing

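The criteria found 24 features. They found 39 on TPM, with 22 of the 24 among them, 7 with a fold limit of 1.5, 14 with a WT T3 mean of 5 CPM or more, 37 with no upper limit on the mutant response and 71 with no condition on overlap. With 1 library left out the number ran from 24 to 65. TMM library sizes gave 25 and lost U4, medians gave 18, a limit of 1.1 on the mutant response 17, and none set aside by name 27, while 3 counts in every raised library, an alternative added after the data were seen, gave 23.

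The number of features called in thra mutant vehicle against WT vehicle was 127, and 532 by DESeq2, 28 with only the groups compared, 76 with the replicate block, and 33 to 504 with 1 library left out. For T3 in the mutant it was 56, and 114 without the filter on low counts, 396 by DESeq2, 30 with only the groups compared, 30 with the replicate block, and 25 to 179 with 1 library left out. Between the T3 groups it was 1515, and 2719 by DESeq2, 3134 with only the groups compared, and 293 to 2655 with 1 library left out. For T3 in WT it was 2399, and 824 to 2528 with 1 library left out. The causes were not tested. Deviations of log CPM from the group mean correlated at -0.085 to 0.072 between same-numbered libraries of different groups. No pairing by replicate number was seen in this, and libraries with different numbers were not compared. With the block 4 members were called in the mutant vehicle contrast in place of 9.

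The median log2 ratio over members was 0.398 for thra mutant vehicle over WT vehicle (0.376 to 0.432 with 1 library left out), 0.565 for WT T3 over WT vehicle (0.552 to 0.59), 0.008 for thra mutant T3 over thra mutant vehicle (-0.048 to 0.092) and -0.04 for thra mutant vehicle over WT T3 (-0.155 to -0.01). For 14 named members, each ratio had 126 values under alternatives that could move it. All moved by less than 1 SD of the log2 ratio between libraries. Leaving out 1 of 3 libraries moves a group mean by less than 1 SD of that group, so this could hardly fail and nothing is read from it. In both rises over WT vehicle 0 of the values changed sign. For left-out libraries and medians this was fixed by the choice of groups that do not overlap. For thra mutant T3 over thra mutant vehicle 7 values changed sign, in chchd10, stard4, xb-gene-5772074, XLOC_027427 and XLOC_036678. At these depths a member with a WT T3 mean near 1 CPM had few counts, down to 16.59 in the lowest library of XLOC_042006. XLOC_036678 and XLOC_027427, with higher WT T3 means, had WT vehicle libraries at 0. In thra mutant vehicle against WT vehicle 15 of the 24 members were not called by edgeR and 10 were not called by DESeq2.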
